A study of Mus musculus with 8 samples.

Results

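Many noncoding genes are transcribed from start sites of their own, and many lie far from any protein-coding gene. Of the 15736 differential ATAC-seq peaks listed for WT and *Chd4-CMko* mouse hearts at embryonic day E10.5, 1198 lay within 3 kb of the transcription start site (TSS) of a noncoding gene and more than 3 kb from every TSS of a protein-coding gene, by GENCODE M21 on mm10. They comprised 1017 of the 12991 peaks enriched in *Chd4-CMko* (gained peaks) and 181 of the 2745 peaks enriched in WT (lost peaks). The other listed peaks were 3276 coding start peaks, within 3 kb of a coding TSS, and 11262 distal peaks, within 3 kb of no TSS.

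ATAC-seq marks open chromatin with the transposase Tn5, and the comparison asks which sites open or close once cardiomyocytes lose CHD4, the remodeling ATPase of the NuRD repressor complex. In *Chd4-CMko* embryos a floxed *Chd4* was deleted by the cardiomyocyte Cre *Tnnt2-Cre*, and littermates served as WT. Each genotype had 4 samples of pooled E10.5 hearts (4 hearts per sample by one label and 3 by another), from which 40000 viable cells were used. The whole hearts were dissociated, so each sample also held cells outside the Cre lineage, and a change in chromatin cannot be told apart from a change in the share of a cell type. The lists hold no expression, so the tissue could not be checked against markers. They give one interval and one score per peak, with no value per sample. No result therefore has a replicate error, a read depth or a p-value between genotypes. Intervals in brackets are 95% intervals (Wilson for a share, Newcombe for a difference of shares), which cover counting error only and treat neighboring peaks as independent.

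Noncoding genes fall into several kinds. Long noncoding RNAs (lncRNAs) act at the chromatin of their neighbors or elsewhere in the cell, and some are only a by-product of an active enhancer. MicroRNAs (miRNAs) silence mRNAs through their seed, bases 2 to 8. Small nuclear RNAs (snRNAs) and small nucleolar RNAs (snoRNAs) serve splicing and the maturation of ribosomal RNA. Pseudogenes are copies of genes that have lost their coding function, and TEC entries are transcribed loci that GENCODE lists as still to be tested by experiment. For a miRNA the annotated start is that of the hairpin, which can lie far from the start of the primary transcript.

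The peaks below carry the results that follow: the highest scores of each list, the peaks at noncoding genes known in the heart or in muscle, and examples of low-complexity sequence. Each is 151 bp on the plus strand of GRCm38 (mm10), and capitals mark matches on either strand to the GC box (GGGCGG), the NFY motif (CCAAT) or the E-box (CAGCTG).
Mir6769b peak, gained, chr8:71629317-71629467: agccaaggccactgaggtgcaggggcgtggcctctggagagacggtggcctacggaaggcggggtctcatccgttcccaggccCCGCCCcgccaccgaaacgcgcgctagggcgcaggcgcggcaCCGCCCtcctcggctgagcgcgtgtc
Gm24830 peak, gained, chr3:96328169-96328319: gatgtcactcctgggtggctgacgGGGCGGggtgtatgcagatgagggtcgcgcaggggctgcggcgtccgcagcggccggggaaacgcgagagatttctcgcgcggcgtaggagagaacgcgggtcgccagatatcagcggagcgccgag
Gm10505 peak, gained, chr17:27325197-27325347: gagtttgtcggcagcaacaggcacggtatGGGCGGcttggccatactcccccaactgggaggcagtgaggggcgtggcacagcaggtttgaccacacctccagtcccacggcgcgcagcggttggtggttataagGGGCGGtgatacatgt
Dleu2 peak, gained, chr14:61682440-61682590: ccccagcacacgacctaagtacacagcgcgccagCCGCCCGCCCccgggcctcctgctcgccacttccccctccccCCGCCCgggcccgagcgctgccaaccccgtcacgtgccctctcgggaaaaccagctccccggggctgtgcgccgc
Hand2os1 peak, gained, chr8:57312869-57313019: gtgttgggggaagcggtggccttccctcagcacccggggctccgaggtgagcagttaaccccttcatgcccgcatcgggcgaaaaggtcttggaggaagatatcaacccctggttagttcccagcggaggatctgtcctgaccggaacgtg
Hand2os1 peak, gained, chr8:57305058-57305208: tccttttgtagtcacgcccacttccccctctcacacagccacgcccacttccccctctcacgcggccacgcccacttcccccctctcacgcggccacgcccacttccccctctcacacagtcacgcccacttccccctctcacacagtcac
Rnu3b3 peak, lost, chr11:87448918-87449068: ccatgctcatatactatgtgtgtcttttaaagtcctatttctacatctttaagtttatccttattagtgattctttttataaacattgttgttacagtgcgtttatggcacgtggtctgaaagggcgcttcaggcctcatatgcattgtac
Tgif2-ps1 peak, lost, chr4:89217063-89217213: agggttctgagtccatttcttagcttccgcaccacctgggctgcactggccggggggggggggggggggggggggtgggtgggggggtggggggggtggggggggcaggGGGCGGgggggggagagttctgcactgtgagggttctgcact
Gm25697 peak, lost, chr14:27528241-27528391: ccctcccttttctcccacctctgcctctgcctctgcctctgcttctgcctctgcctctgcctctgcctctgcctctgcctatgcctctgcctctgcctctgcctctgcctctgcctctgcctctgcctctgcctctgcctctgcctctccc
Mir206 peak, lost, chr1:20678121-20678271: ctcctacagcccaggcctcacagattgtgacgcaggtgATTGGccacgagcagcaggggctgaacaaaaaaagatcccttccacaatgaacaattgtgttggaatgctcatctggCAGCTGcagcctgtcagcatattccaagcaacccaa
Mir30a peak, lost, chr1:23271526-23271676: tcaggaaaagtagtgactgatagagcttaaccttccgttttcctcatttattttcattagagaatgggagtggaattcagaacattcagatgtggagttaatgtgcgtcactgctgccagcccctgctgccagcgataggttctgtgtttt
The Mir6769b, Gm24830, Gm10505 and Dleu2 peaks each hold the GC box, and neither of the *Hand2os1* peaks does. The Tgif2-ps1 peak runs through 24 equal bases in a row, and the Gm25697 peak is a tandem array in which 90.9% of bases recur at a period of 30 bases.

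Among miRNAs at members, the mature sequences below (RefSeq, GRCm38, seed in capitals) are a selection, and some of them share a seed.
mmu-miR-206-3p: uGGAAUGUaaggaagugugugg
mmu-miR-6349: uGGAAUGUgggaggggcaugcg
mmu-miR-30a-5p: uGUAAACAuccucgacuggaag
mmu-miR-291a-3p: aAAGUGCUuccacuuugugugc
mmu-miR-294-3p: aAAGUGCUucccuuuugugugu
mmu-miR-295-3p: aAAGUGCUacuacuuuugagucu
mmu-miR-290a-3p: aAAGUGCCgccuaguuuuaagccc
mmu-miR-290a-5p: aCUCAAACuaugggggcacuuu
mmu-miR-292a-5p: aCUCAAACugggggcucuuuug
mmu-miR-293-5p: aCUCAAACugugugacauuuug
mmu-miR-9-5p: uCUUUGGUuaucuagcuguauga
mmu-miR-34a-5p: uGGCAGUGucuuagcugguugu
mmu-miR-203-3p: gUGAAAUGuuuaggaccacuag
miR-206-3p, a skeletal muscle miRNA with a lost peak, and miR-6349, with a gained peak, share the seed GGAAUGU. In the gained miR-290 cluster, which is known from pluripotent cells and the early embryo, miR-291a-3p, miR-294-3p and miR-295-3p share AAGUGCU, and miR-290a-5p, miR-292a-5p and miR-293-5p share CUCAAAC. Not shown are miR-291a-5p and miR-291b-5p, which share AUCAAAG, and miR-292b-5p and miR-294-5p, which share CUCAAAA. Of the 72 miRNA genes within 3 kb of a member, 45 matched a RefSeq entry by symbol.

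Peaks at noncoding starts were mostly gained, but less so than peaks at coding starts. Of the 1198 members, 84.9% were gained (82.8 to 86.8%), against 91.4% of coding start peaks (90.4 to 92.3%) and 79.7% of distal peaks (79.0 to 80.5%). Of all listed peaks, 82.6% were gained. The gained share of members minus that of coding start peaks was -6.53 points (-8.86 to -4.37), and minus that of distal peaks it was 5.16 points (2.90 to 7.22). Members made up 7.83% of the gained list (7.38 to 8.30%) and 6.59% of the lost list (5.72 to 7.58%), a difference of 1.23 points (0.147 to 2.22). Coding start peaks, in contrast, made up 23.1% of the gained and 10.2% of the lost list. The excess over distal peaks did not hold when only scores above the median of each list were kept (3.30 points, interval -0.408 to 6.62), and the 1.23-point difference turned to -0.958 points.

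**Figure D1:**
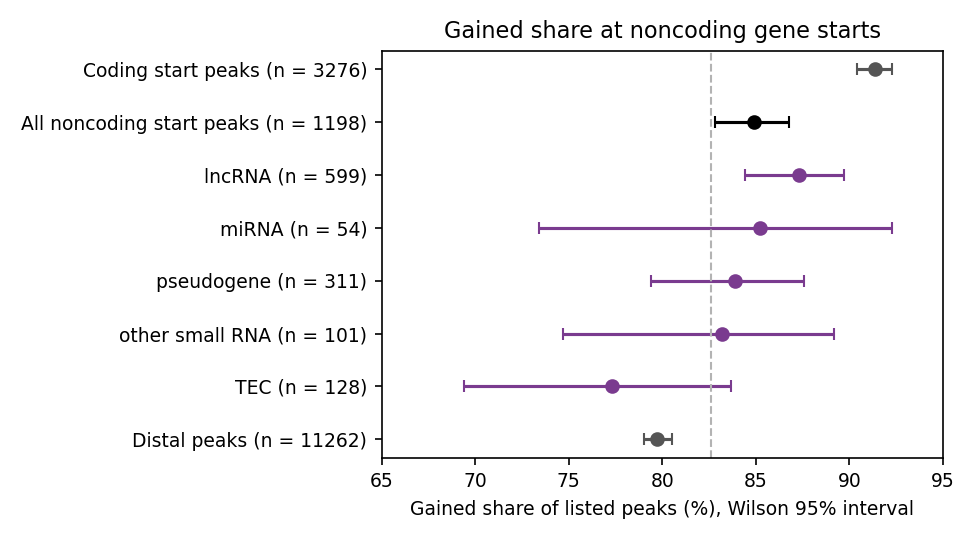
Gained share of listed peaks (x axis, percent) for coding start, noncoding start and distal peaks and for 5 classes of noncoding gene, with Wilson 95% intervals. The dashed line is the share over all listed peaks (82.6%). The point for noncoding starts (84.9%) lies between those for coding starts (91.4%) and distal peaks (79.7%).

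Set against the sequence available, gained and lost peaks were both denser at lncRNA starts than in distal sequence. The lists leave out open sites that did not change. Densities here and shares of genes below therefore cannot tell more change apart from more open sites. The windows that define members cover 6.32% of the sequenced genome (167 Mb) and held 6.08 gained peaks per Mb (exact Poisson interval 5.71 to 6.46), against 4.03 in distal sequence (3.95 to 4.11) and 11.9 at coding starts (11.5 to 12.3). Lost peaks numbered 1.08 per Mb in these windows (0.929 to 1.25), 1.02 in distal sequence and 1.12 at coding starts. Windows at lncRNA starts held 10.6 gained peaks per Mb (9.68 to 11.5) and 1.53 lost peaks (1.21 to 1.92), both above the distal density. Windows at pseudogenes held 3.49 gained (3.08 to 3.94) and 0.668 lost peaks per Mb (0.496 to 0.880), both below it. For miRNA windows the values were 5.99 gained (4.39 to 8.0) and 1.04 lost (0.450 to 2.05), and for other small RNAs 4.78 (3.81 to 5.91) and 0.966 (0.563 to 1.55). TEC windows held 6.40 gained (5.21 to 7.80) and 1.88 lost peaks per Mb (1.26 to 2.69), so both lists were above the distal density there too.

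**Figure D2:**
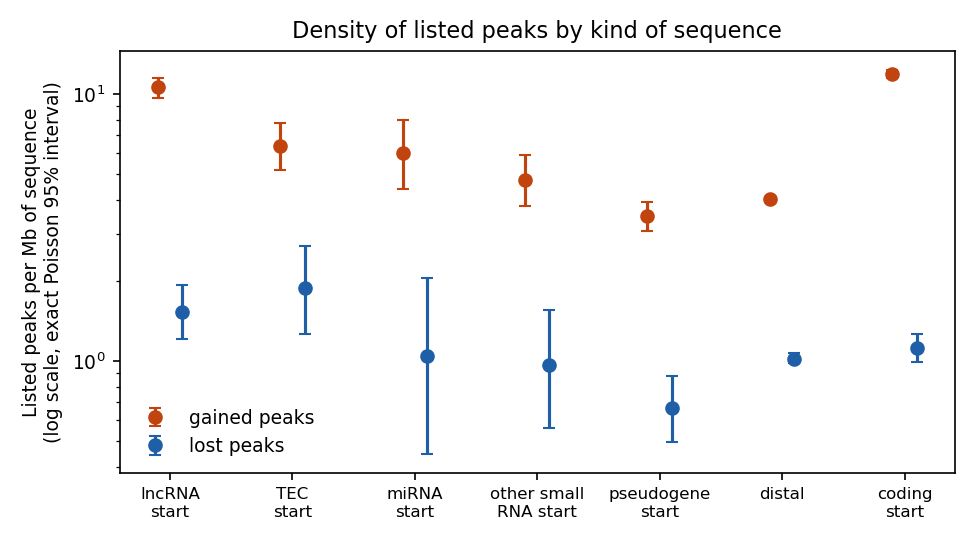
Listed peaks per Mb of sequence (y axis, log scale) by kind of window, for gained and lost peaks, with exact Poisson 95% intervals. Gained peaks range from 3.49 per Mb at pseudogene starts to 11.9 at coding starts, while lost peaks stay between 0.668 and 1.88 per Mb.

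By class of the nearest noncoding gene, lncRNAs held 599 of the 1198 members, with 523 gained and 76 lost peaks. Their gained share (87.3%) was 4.84 points above that of all other members (0.782 to 8.90). Within the class the GENCODE types were alike in this share: 87.1% for 389 lincRNA peaks, 87.4% for 143 antisense peaks and 86.3% for 51 processed transcript peaks, with intervals that overlap. TEC loci had 99 gained and 29 lost peaks, and their gained share (77.3%) minus that of the other members was -8.45 points (-16.7 to -1.68). The interval of neither difference was clear of 0 when only scores above the median of each list were kept (4.52 points for lncRNAs and -1.88 for TEC loci). Pseudogenes held 261 gained and 50 lost peaks (83.9% gained), most of them at processed pseudogenes (209 and 42). Gained shares for miRNAs (46 and 8 peaks, 85.2%) and other small RNAs (84 and 17, 83.2%) differed from the other members by 0.308 points (-11.6 to 7.75) and -1.88 points (-10.6 to 4.57). Among the small RNAs, snRNA genes had 37 gained and 3 lost peaks and snoRNA genes 23 and 8. T cell receptor segments had 4 and 1.

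Counted by gene, 1061 of the 28630 noncoding genes with a TSS more than 3 kb from every coding TSS had a gained peak within 3 kb (3.71%) and 202 had a lost peak (0.706%). For lncRNA genes the shares were 6.82% gained (6.28 to 7.41%) and 1.08% lost (0.869 to 1.33%) of 7711 genes. For pseudogenes they were 2.14% (1.91 to 2.41%) and 0.459% (0.356 to 0.592%) of 12841. miRNA genes had 3.87% (3.03 to 4.92%) and 0.491% (0.249 to 0.966%) of 1629, where the gained share includes 9 hairpins of the miR-290 cluster at one peak. Over all their TSSs, 1075 noncoding genes had a gained member in reach and 203 a lost one. Most had a single peak: 50 genes had 2 gained members and *Gpr137b-ps*, a transcribed pseudogene, had 3, with scores of 66.5, 49.0 and 280.5, while no gene had more than 1 lost member. Of the 3 *Gpr137b-ps* peaks, the highest covered a TSS and had 74.4% of its 31-base words at more than 1 place in the genome.

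Of the 203 noncoding genes with a lost member, 4 also had a gained one. Over all noncoding genes with a TSS more than 3 kb from every coding TSS, 3.71% had a gained peak. The count of 4 is too small to set apart from that share. At the antisense gene *Gm15601* a gained peak lay 53 bp from a TSS (score 76.5) and a lost peak 636 bp from another TSS (40.1), with *Fermt2* and *Ddhd1* as the nearest coding genes. At the lincRNA *AC132404.1*, near the inositol trisphosphate receptor gene *Itpr3*, the gained peak was 296 bp (188.0) and the lost peak 2661 bp (76.0) from a TSS. The TEC locus *Gm43350* had a gained peak at 726 bp (41.0) and a lost one at 1212 bp (36.4). The processed pseudogene *Gm4478*, in *Tbc1d30*, had them at 2250 bp (35.0) and 790 bp (26.7).

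Most members flanked their noncoding TSS and did not cover it. A peak covered the TSS in 121 of 1017 gained (11.9%, 10.0 to 14.0%) and 14 of 181 lost members (7.73%, 4.66 to 12.6%), a difference of 4.16 points (-1.01 to 7.90). At coding starts 29.2% of gained and 11.4% of lost peaks covered the TSS. Gained members therefore covered their TSS less often than gained coding start peaks did, with a difference of -17.3 points (-19.8 to -14.6). For lost peaks the difference was -3.65 points (-8.89 to 2.14). Any annotated transcript start counted, and starts per gene were not matched between coding and noncoding genes. Within 1 kb lay 48.1% of gained and 47.0% of lost members, a difference of 1.12 points (-6.75 to 8.89). Gained members had a median distance of 1081 bp and lost members one of 1151 bp. lncRNA starts were covered by 92 of 523 gained (17.6%) and 10 of 76 lost peaks (13.2%), against 20 of 261 gained pseudogene peaks (7.66%), 4 of 99 at TEC loci, 2 of 46 at miRNA hairpins and 1 of 4 at immune receptor segments. Gained peaks over a TSS had their midpoint upstream in 66.1% (57.3 to 73.9%), and those 1 to 500 bp away in 60.9% (54.3 to 67.2%). Beyond 500 bp upstream and downstream were about even. At the limits of the rule, the farthest gained member was 2998 bp from its noncoding TSS and the nearest gained distal peak 3002 bp, and the member closest to a coding TSS was at 3056 bp.

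**Figure D3:**
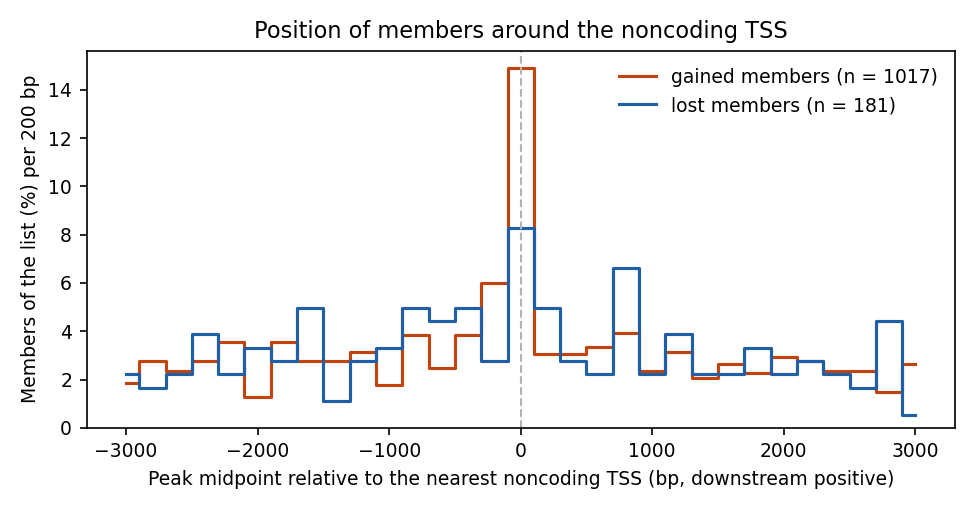
Share of each list's members (y axis, percent per 200 bp) by the position of the peak midpoint relative to the nearest noncoding TSS (x axis, bp). The bin centered on the TSS held 14.9% of gained and 8.29% of lost members.

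In base composition, gained members resembled distal peaks more than coding promoters. Mean GC content was 55.8% ± 7.58 (SD over 1017 peaks) in gained members, 64.4% ± 10.1 in gained coding start peaks (n = 2995) and 54.2% ± 6.27 in gained distal peaks (n = 8979). Gained members differed from the former by -8.59 points (normal interval of the difference of means -9.18 to -8.0) and from the latter by 1.61 points (1.13 to 2.10). Lost members had a mean of 51.6% ± 7.10 (n = 181), which was 4.18 points below gained members (3.05 to 5.31). Lost members and lost coding start peaks differed by -0.178 points (-1.42 to 1.07). Even where a gained member covered its TSS, its mean GC (57.5%, n = 121) was lower than that of gained peaks over a coding TSS (69.0%, n = 874), with a difference of -11.5 points (-13.2 to -9.91). A GC content of 70% or more was found in 62 gained members (6.10%), 26 of them at lncRNAs and 25 at pseudogenes, against 33.0% of gained coding start peaks and 1.46% of gained distal peaks.

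**Figure D4:**
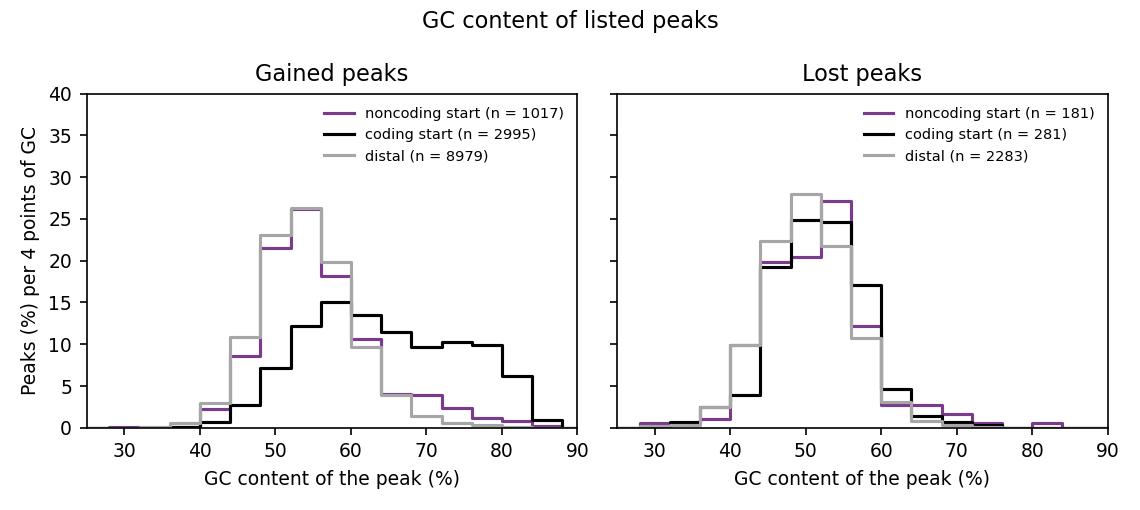
GC content of listed peaks (x axis, percent) as the share of peaks per 4 points of GC (y axis), for gained peaks on the left and lost peaks on the right. Among gained peaks the coding start curve extends beyond 70% GC (33.0% of peaks) and the noncoding start curve (6.10%) follows the distal one (1.46%), while the curves for lost peaks overlap.

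Scores are on a scale that the sources do not give, and that may differ between the lists. They were therefore compared within a list, apart from the alternative setting with a common score limit for both lists. Of gained members, 43.6% were above the median of the gained list (40.5 to 46.6%), a difference of -33.7 points from gained coding start peaks (77.3%, interval -37.1 to -30.3) and of 2.45 points from gained distal peaks (-0.733 to 5.68). Of lost members, 59.1% were above the median of the lost list (51.8 to 66.0%), 11.5 points more than of lost distal peaks (3.94 to 18.7). They did not differ detectably from lost coding start peaks (61.6%, difference -2.45 points, -11.6 to 6.57). Median scores were 57.0 for gained and 41.0 for lost members. Members took 5 of the 100 highest gained scores and 11 of the 100 highest lost scores, against 7.83% of the whole gained and 6.59% of the whole lost list. These counts are small, and their difference from those shares was not tested.

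The sequences of members differed in the GC box, the binding motif of SP and KLF factors, and in CCAAT, that of the trimeric factor NFY. The GC box occurred in 205 gained (20.2%, 17.8 to 22.7%) and 6 lost members (3.31%, 1.53 to 7.04%), a difference of 16.8 points (12.4 to 20.0). Windows of 151 bp centered on all 32682 eligible noncoding TSSs held it in 4.21%, gained coding start peaks in 46.1% and gained distal peaks in 14.8%. Lost coding start and lost distal peaks held it in 5.34% and 2.63%, so the gap between the lists was not particular to members. CCAAT occurred in 304 gained (29.9%) and 24 lost members (13.3%), a difference of 16.6 points (10.3 to 21.7), and in 21.4% of the TSS windows. Gained members held CCAAT more often than gained coding start peaks (by 7.42 points, 4.29 to 10.7) and did not differ detectably from gained distal peaks (-1.58 points, -4.48 to 1.46). The gap between gained and lost peaks was again present elsewhere: 22.5% against 9.25% at coding starts and 31.5% against 12.7% in distal peaks. The MEF2 motif, bound by myocyte enhancer factors, was in 36 gained (3.54%) and 1 lost member (0.552%), and the CTCF motif in 1 and 3. The intervals of both differences excluded 0 (2.99 points, 0.296 to 4.39, and -1.56 points, -4.66 to -0.375), but they rest on a few lost peaks. The MEF2 interval included 0 among peaks above their own list's median score (-2.13 to 4.44), among those at or above the lost list's median score (-1.36 to 4.64) and with 1 mismatch allowed (-1.88 to 6.71), and the CTCF interval did so with 1 mismatch (-6.74 to 1.15). The TEAD motif (ACATTCC) was in 3.54% of gained and 6.63% of lost members, a difference of -3.09 points (-7.79 to 0.00353).

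The other motifs showed no difference between the lists that counting error could resolve. The motif of the GATA factors (AGATAAG) was in 5.51% of gained and 4.97% of lost members, against 1.76% of the TSS windows. For the motif of ETS factors (CCGGAAG) the shares were 3.15%, 2.21% and 1.36%. For that of AP-1 (TGANTCA) they were 6.78%, 7.73% and 4.41%, and for the E-box (CAGCTG) 14.8%, 17.7% and 8.99%. The E-box was rarer in gained members that covered a TSS (7.44%) than in the other gained members (15.8%), a difference of -8.41 points (-12.7 to -1.91). For GATA these shares were 1.65% (2 of 121) and 6.03%, a difference of -4.37 points (-6.50 to 0.0216). The TSS windows are centered on a TSS, which most members did not cover. They are therefore not a matched background for members. A motif match is a match of letters and not a measured binding site. None of the 9 motifs is contained in another.

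**Figure D5:**
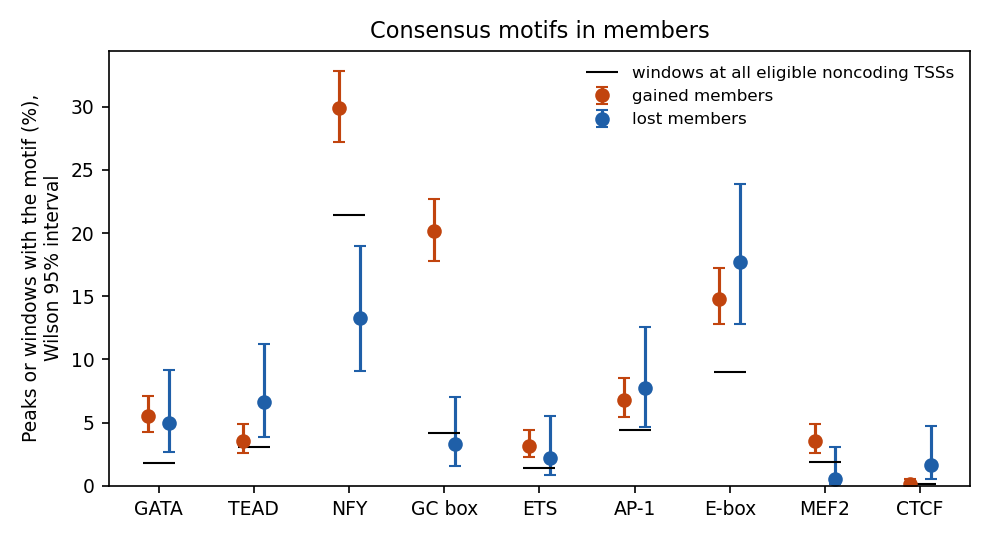
Share of peaks (y axis, percent, Wilson 95% intervals) that held each consensus motif, for gained and lost members, with bars for windows at all eligible noncoding TSSs. The lists separate at the GC box (20.2% and 3.31%) and at NFY (29.9% and 13.3%).

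The strongest gained member (score 581.5, rank 9 of the gained list) lay 1639 bp downstream of the hairpin *Mir6769b* (chr8:71629317-71629467), in an exon of *Unc13a*, which encodes a synaptic vesicle priming protein, and a further gained peak (204.5) lay at 1081 bp in an intron. The second (541.0) was 106 bp from the snRNA *Gm24830* (chr3:96328169-96328319), with 66.1% of its words at more than 1 place. A peak of 491.0 lay 355 bp upstream of *Mir1191b* in an intron of *Nfic*, a nuclear factor I gene. The peak at *Gm10505* (489.0, chr17:27325197-27325347), a processed transcript, covered the TSS, outside coding genes and 120728 bp from the nearest coding TSS, that of *Lemd2*. The fifth (415.0) was 1987 bp from the miRNA gene *Gm23268* in an intron of *Srrm3*, a splicing regulator of neurons. Of these 5 peaks, 3 were nearest to a miRNA hairpin and lay inside a coding gene. Among all 1017 gained members, 46 were nearest to a miRNA. The 5 were picked by score, and their count was not tested against that background.

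In the lost list the strongest members included both U3 snoRNA genes of an intron of *Tex14*, a gene of germ cell bridges. *Rnu3b3* (score 525.3, chr11:87448918-87449068) and *Rnu3b4* (421.5, chr11:87462490-87462640) had peaks 291 and 204 bp downstream of their starts, with GC contents of 36.4% and 39.1%. Of the words of the *Rnu3b3* peak none, and of those of the *Rnu3b4* peak 28.1%, occurred at more than 1 place. The other 3 of the 5 strongest lost members were in sequence of low complexity or in repeats. The peak at *Tgif2-ps1* (489.8, chr4:89217063-89217213) held a run of 24 equal bases and that at *Gm31774* (254.9), in an intron of *Hsd17b2*, a run of 19. The peak at the snoRNA *Gm25697* (292.0) was wholly in soft-masked repeats. Among weaker members, the peak at the pseudogene *Vmn2r125* (188.8) matched itself at a period of 48 bases in 80.6% of positions, whereas those at the snRNA *Gm25134* (213.7) and the rRNA *n-R5s156* (205.8), named after their values were seen, had neither such a match nor a run of 12 or more equal bases. None of the 5 strongest gained members had a run of 12 or more equal bases or a tandem match of 80% or more. Over all members, 4.62% of gained (3.49 to 6.09%) and 3.31% of lost peaks (1.53 to 7.04%) had either.

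Some members lay in sequence that recurs elsewhere in the genome. More than 50% of the 31-base words of a peak were found at more than 1 place for 7.47% of gained (6.01 to 9.25%) and 5.52% of lost members (3.03 to 9.87%), against 2.67% of gained coding start peaks and 5.67% of gained distal peaks. The excess over coding start peaks was 4.80 points (3.21 to 6.66). The share was higher at gained pseudogene members than at other gained members, by 7.47 points (3.46 to 12.3). Of all listed peaks, the 3 with words of the mitochondrial genome were members at pseudogenes: *Gm10222* (lost, score 162.2, over the TSS, 81.0% of words mitochondrial), *Gm13340* (gained, 120.5, in an intron of *Myo3a*, 54.5%) and *AC124578.3* (gained, 42.0, 20.7%). The part that read placement had in these peaks was not tested.

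For 72 miRNA genes a member lay within 3 kb of the hairpin, 64 with 54 gained and 8 with 8 lost peaks. Of the 54 gained peaks 35 lay inside a coding gene, and so did 5 of the 8 lost ones. Over all members, 69.2% of gained and 60.2% of lost peaks lay outside coding genes. Both counts depend on where the annotation places hairpins. One gained peak covered the TSS of *Gm3764* and lay 1047 bp from *Mir9-1*, a miRNA of neural progenitors (score 112.5, GC 62.9%). Another lay 858 bp upstream of *Mir124a-3*, a miRNA of neurons (107.5, GC 73.5%), and a peak over the TSS of *AC026385.1* lay 1203 bp from *Mir7b* (61.5). Other gained peaks lay 478 bp from *Mir203*, an epidermal miRNA (109.0), 371 bp from *Mir184* (66.5), 1804 bp from *Mir375*, a miRNA of pancreatic islets (56.0), and 791 bp upstream of *Mir290a*, the first hairpin of its cluster (60.5). The highest score at a miRNA outside coding genes was at *Mir193b* (350.5, 1612 bp upstream, GC 81.5%), followed by a peak of 224.5 at *Gm25281*.

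Further gained peaks lay at 1495 bp from the p53 target *Mir34a* (42.0), at 740 bp from *Mir148b* in *Copz1* (37.0) and at 2261 bp from *Mir139* (56.0), in an intron of *Gm45837* and 8170 bp from the coding TSS of *Pde2a*. The peak 778 bp upstream of *Mir1963*, in an intron of the skeletal muscle calcium channel gene *Ryr1* (88.0), was wholly in repeats, with 88.4% of words at more than 1 place. A gained peak lay 9 bp from *Mir6349* (121.0), whose seed matches that of miR-206-3p.

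The lost miRNA members had scores of 25.6 to 70.7, with a median of 42.3 against 41.0 for all lost members. The highest lay 593 bp upstream of *Mir30a*, of the miR-30 family abundant in cardiomyocytes (70.7, chr1:23271526-23271676, GC 43.7%), outside coding genes. *Mir206* had one 739 bp upstream (25.6, chr1:20678121-20678271, GC 51.7%), with a CCAAT and an E-box match. The others were at *Gm47277* (50.5), *Gm23762* (44.1), *Gm27711* (42.7), *Mir1843a* (41.9), *Mir1929* (35.9) and *Mir703* (25.6).

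Of a list of 96 noncoding RNAs known in heart, muscle or development, 68 had a TSS more than 3 kb from coding starts. Of these, 4 had a gained peak (5.88%, against 3.71% of all such genes), 2 a lost one (2.94%, against 0.706%) and 62 neither, counts too small to set apart from all genes. *Hand2os1*, the lncRNA transcribed away from the cardiac transcription factor gene *Hand2*, had 2 gained peaks. One (score 84.0, chr8:57312869-57313019) lay 1222 bp upstream of its start and 7964 bp from the *Hand2* TSS, and the other (38.0, chr8:57305058-57305208) lay 150 bp downstream of another start, in an array that matches itself at a period of 27 bases in 75.0% of positions. The gained peak at *Dleu2* (362.5, chr14:61682440-61682590), host transcript of miR-15a and miR-16-1, was 67 bp upstream of a TSS with a GC content of 76.2%. *Trp53cor1* (lincRNA-p21) had a gained peak 1632 bp upstream (133.5), 10015 bp from the p53 target *Cdkn1a*. A gained peak (81.5) lay 763 bp from a start of *Sox2ot* and 41 bp from the TEC entry *Gm42693*, 13925 bp from *Sox2*. The lost ones were *Mir30a* and *Mir206*.

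The coding neighbor of a member was usually far away. The median distance from a member to the nearest coding TSS was 27208 bp among gained and 27071 bp among lost members, with quartiles of 11709 and 64224 bp and of 12135 and 76964 bp. The gained share was 84.9% for the 252 members at 3 to 10 kb, 85.8% for the 549 at 10 to 50 kb, 83.8% for the 309 at 50 to 200 kb and 83.0% for the 88 farther away, with intervals that overlap. The share differed by position in coding genes: 79.8% of the 346 members in introns were gained (75.2 to 83.7%), a difference of -7.20 points from the other members (-12.2 to -2.61), and 86.6% of the 813 outside coding genes (84.1 to 88.8%). The 39 exonic members held 37 gained and 2 lost peaks. Inside a coding gene, the lncRNA ran on the strand of its host in 17.1% of 152 members (11.9 to 23.9%). The TEC entry did so in 81.1% of 74 (70.7 to 88.4%) and the miRNA in 71.1% of 38 (55.2 to 83.0%). These shares depend on the annotation, since the lncRNAs include the antisense type. No share over all noncoding genes inside coding genes was computed. The noncoding gene pointed away from its coding neighbor in 27.6% of gained and 27.1% of lost members.

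Members were scattered over 1046 nearest coding genes, of which 920 had 1 member and 22 had members of both lists. The count of 22 was not set against an expected overlap. The most were 4, at *Dll1*, *H60b*, *Zfhx3* and *Dad1* (named after their values were seen). Near *Dll1*, a Notch ligand gene, all 4 were gained: 2 at the lincRNA *Gm5091* (91.0 and 145.5), one 140 bp from *Gm35576* (213.0) and one at the pseudogene *Gm7423* (21.5), 46136 to 127418 bp from the *Dll1* TSS. Near *Zfhx3*, a homeobox factor gene, the gained peaks were at *Lncbate1* (35.0), *Gm38042* (36.0), *Gm38318* (131.5) and, over the TSS, *D030068K23Rik* (71.0). At *Dad1* the members were T cell receptor segments, 3 gained and 1 lost.

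A list of 79 genes held cardiac transcription factors, sarcomere and skeletal muscle genes and NuRD subunits. Of these, 12 were the nearest coding gene of a member. The share over all coding genes was not computed, so this count has no background. The 12 genes had 10 gained and 5 lost peaks (66.7% gained, against 84.9% of all members and 82.6% of all listed peaks). The peaks were too few to tell the shares apart. The gained peaks were 3834 to 209922 bp from the TSS of these genes, and nearest means only that no other coding TSS was closer. *Gm49390* had one 13 bp from its TSS (164.0) with GATA and CCAAT matches, 45890 bp from *Gata4*. The antisense gene *A830082K12Rik*, 3834 bp from the nuclear receptor gene *Nr2f1*, had one of 162.0. *Nr2f2*, its paralog and an atrial regulator, had gained peaks at *B130024G19Rik* (69.0), 43362 bp away, and at *Gm44812* (32.5), 209922 bp away. Others were at *Gm18822* (64.0), 47275 bp from the Notch effector gene *Hey1*, at *Gm29764* (51.5), 21126 bp from *Isl1* of cardiac progenitors, and at *A330102I10Rik* (27.0), 60424 bp from *Sox4*.

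Lost peaks lay at *1010001N08Rik*, 5378 bp from *Gata6* (75.8), at *Gm33926*, 70484 bp from *Mef2a* (49.1), at *Gm28324*, 81227 bp from *Foxf1* (33.3) and, over the TSS of *AC166779.1*, 151564 bp from the NuRD subunit gene *Mbd2* (20.9). *Meis1*, a homeobox gene of heart development, had a gained peak at *8430419K02Rik* (93.0), 140303 bp from its TSS, and a lost one in its intron at the TEC entry *2900018N21Rik* (23.8), 119248 bp away. No member had a Hox gene as its nearest coding gene.

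A second annotation put a few members at coding starts. A curated RefSeq coding transcript began within 3 kb of 12 gained members and 1 lost member. At *Gm10805* (363.5) the peak covered the RefSeq start of *Chrm4*, a muscarinic acetylcholine receptor gene, and at *Gm11635* (132.0), *Gm7932* (120.5) and *Gm25456* (154.0) it covered the start of a RefSeq coding gene too. Counted as coding start peaks, they left 1005 gained and 180 lost members.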

How the data were processed

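ATAC-seq was carried out on dissociated E10.5 hearts of 4 WT and 4 *Chd4-CMko* samples. Per the labels, the authors used BWA-MEM for alignment (mm10), HOMER 4.10.3 for peak calling and ChIPseeker 1.20.0 for annotation, and a fold-change limit defined differential peaks. How duplicates, the Tn5 offset and replicates were handled is not given in the sources used here, and each can change which peaks are listed. The deposited score of each peak, in column 5 of 1 list per genotype, is on a scale that is not stated. Gained scores step by 0.500.

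Peaks were assigned to every transcript start of GENCODE M21 from the nearest edge of the interval (1198 members, all 151 bp). The lists of genes and the members were chosen with earlier results of these data known. Named were the 5 highest scores per list, the highest 3 per class, genes with the most members, listed noncoding RNAs and coding neighbors, all miRNA genes, and genes in both lists. Not every gene of this rule is printed. Peaks per Mb used windows on a 10 bp grid without unsequenced bases. Motifs were exact matches on both strands. The share of 31-base words found more than once in chromosomes and the mitochondrion, runs, tandem matches (periods of up to 60 bases) and the RefSeq check were added after the data were seen. Intervals are 95% (Wilson, Newcombe, exact Poisson and, for means, normal). The files do not give depth, so precision comes from peak counts alone. Functions were tested on simulated data. Python 3.11.15, numpy 2.4.6, pandas 2.3.3, scipy 1.17.1, pysam 0.24.0 and samtools 1.23.1 were used.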

Additional observations from a re-analysis of the deposited data

How the results depend on the processing

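No paired analysis was possible because the lists hold no value per sample, and leaving out a replicate could not be done either. Of 213 values recomputed under 14 settings, 163 kept their direction and side of 0 or stayed within limits. The members' gained share minus that of coding start peaks lay between -12.5 and -4.91 points under the 13 settings that recomputed it, all but the motif mismatch.

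Windows of 1 kb left 535 gained and 94 lost members. The difference was 0.694 points for the members' share of each list, 4.66 for lncRNAs and -5.24 for TEC. The intervals of these differences all included 0. Of eligible genes, 1.79% had a gained and 0.326% a lost peak. Windows of 5 kb gave 0.866 points for the members' share of each list (-0.417 to 2.06) and 5.33% and 1.09% of genes. Without pseudogenes, TEC entries and immune receptor segments there were 667 gained and 104 lost members. The difference within 1 kb was -1.42 points (interval including 0), and 5.31% and 0.894% of genes had a peak. Scores above each list's median left 443 gained and 107 lost members. Differences were 3.30 points against distal peaks, -0.958 for the members' share, 4.52 for lncRNAs and -1.88 for TEC. For motifs they were -2.22 for GATA, -0.321 for ETS, 0.230 for AP-1 and 2.23 for MEF2. All of these intervals included 0, and 1.65% and 0.433% of genes had a peak. A common limit at the lost list's median score left 109 lost members. It gave 1.66 points against distal peaks, -0.334 for the members' share, 0.999 for lncRNAs, -0.0785 for TEC and 0.0204 for pseudogenes. Further differences were -1.06 within 1 kb, -1.09 for GATA, 0.811 for AP-1 and 2.89 for MEF2. The intervals under this limit all included 0 for these differences, and 2.90% and 0.440% of genes had a peak. With 1 mismatch allowed the motif differences were -2.76 points for GATA, -11.3 for TEAD, -0.0657 for NFY, 3.14 for MEF2 and -2.01 for CTCF. Among these, only the TEAD interval was clear of 0. Without repeat-rich peaks the members' share differed by 1.09 points (-0.0429 to 2.12) and the miRNA difference was -0.216 (interval including 0). Autosomes gave -3.19 points for TEAD (interval clear of 0) and 4.03% of genes with a gained peak. The miRNA difference was -0.177 from peak centers and -0.652 without peaks with shared words, and both intervals included 0. Leaving out shared words was an alternative chosen after seeing the data, as was the use of RefSeq coding starts. The GC difference and the GC box difference kept their direction and side of 0.

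The cause of the changes was not tested, except that 1 mismatch in a motif of 5 letters lets most windows match, and that narrower windows, score limits and fewer genes leave fewer members by construction. With no values per sample, limits set by depth or by replicate spread could not be given. The common score limit has a meaning only if both lists share a score scale, which is not known.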
